A study of Mus musculus with 4 samples.

Results

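The 10 genes described here code for the enzymes that make fatty acids from citrate in the liver, and for the factors that turn those enzymes on: Srebf1, Mlxipl, Acly, Me1, Acaca, Acacb, Fasn, Elovl6, Scd1 and Thrsp. They were taken as every row of the deposited series table whose gene symbol was one of these names, which gave 18 of the 41174 probes on the array, and each probe is reported. All 18 were among the 39080 probes kept for testing, which carry 20666 named genes. The samples were livers of male C57Bl/6 mice, 3 months old. On each of 4 two-colour Agilent arrays, 1 Wrn mutant animal that had received 0.4% vitamin C in its drinking water since weaning (labelled with Cy5) was set against 1 untreated wild-type animal (labelled with Cy3). Wrn encodes a RecQ helicase, and its mutant allele is named in the labels only as mutant. Both groups had free access to food and lived under a reversed light-dark cycle, and the hour and feeding state at collection are not given in the sources used here. No dye was swapped, so genotype, vitamin C and dye cannot be told apart in any ratio, and "mutant" below means the vitamin C-treated Wrn mutant.

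De novo lipogenesis turns surplus carbohydrate into fat. Citrate leaves the mitochondrion and is cut by ATP citrate lyase (Acly) into acetyl-CoA, which the acetyl-CoA carboxylases (Acaca, Acacb) convert to malonyl-CoA. Fatty acid synthase (Fasn) builds palmitate from these units with NADPH that comes in part from malic enzyme (Me1), and Elovl6 and Scd1 then lengthen and desaturate it. In the liver the genes are switched on after a meal by SREBP-1c, a product of Srebf1 that responds to insulin, and by ChREBP, the product of Mlxipl, which responds to sugar.

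Each probe is an oligonucleotide of 60 bases printed on the array, and a gene with several probes is read at several places of its transcript. The first 30 bases of the probes on which the results turn are given here, 5′ to 3′, because they identify the stretch each value refers to. They come from the scanner files, and their place in exon or UTR was not determined.
Srebf1 A_51_P401921: ggcaccttagtggcttttccctagctgagg
Acly A_51_P261718: gaacacatgagcatgtaactgagccaggag
Acly A_52_P373556: accgtcttattcctttcatagttaacaagg
Me1 A_51_P186601: ttgaataccattcgaggcgtttcgttgaaa
Me1 A_51_P266861: attaatttactggacacgttgataatggca
Fasn A_51_P321126: gcttgggttttgacttttctgcagctgtca
Fasn A_52_P100252: attggtagggtacaaaggtgttcagaggat
Scd1 A_52_P682382: actcctgggctaagtatctgacagtctcac
Thrsp A_51_P194099: gacccggaaagcacaggaggtgacgcggaa
The 2 probes of Acly differ in what they are annotated to. A_51_P261718 is assigned to the gene's mRNA, whereas A_52_P373556 is assigned to a cDNA from neonate cerebellum whose product is described as unclassifiable. Me1 A_51_P186601 is annotated to a partial coding sequence of malic enzyme mRNA from a null strain.

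Fatty acid synthesis genes were higher in the mutant liver at Scd1, Fasn, Thrsp, Me1, Acly and Srebf1 and on 1 of 2 Mlxipl probes, and none of the 18 probes was lower. The carboxylase genes Acaca and Acacb and the elongase gene Elovl6 did not pass. Values are log2 ratios of mutant over wild type, so that 1 is a doubling, and each mean is over the 4 arrays. With limma's moderated test of the mean ratio against 0, at a Benjamini-Hochberg adjusted p under 0.05 over all kept probes, 8 of the 18 probes (44.4%) were higher in the mutant. The other 10 did not pass, and 0 were lower. Over all kept probes 6.19% were higher and 6.79% lower. The median ratio of the 18 probes was 0.515, and that of all kept probes was 0.00. The ratio was above 0 on all 4 arrays for 11 of the 18 probes, against 21.5% of all probes, and below 0 on all 4 for 1. The 8 calls fall on 7 genes, of which Srebf1, Scd1, Thrsp and Fasn had every probe called and Acly, Me1 and Mlxipl had 1 of 2. With array 2 left out no member probe passed (0 of 18), against 160 of all 39080 probes. In that fit 10 member probes had an unadjusted limma p under 0.05. The share of all probes under it was not computed, so this count does not show that the members stood out. In bulk tissue, fewer cells of a type and less RNA per cell cannot be told apart.

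**Figure D1:**
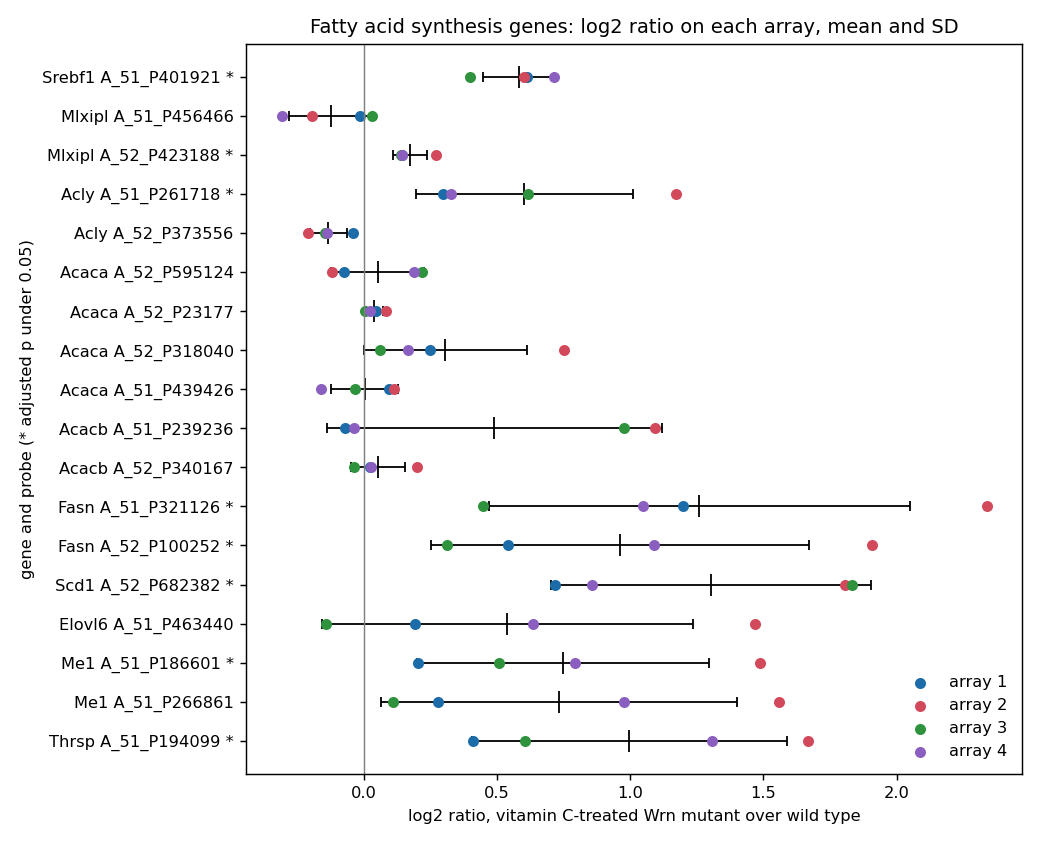
Log2 ratio of mutant over wild type on each of the 4 arrays (coloured points) for the 18 probes, with the mean (vertical tick) and SD (horizontal bar), and an asterisk where the limma adjusted p was under 0.05. The 8 marked probes lie above 0 on every array, and array 2 gives the highest point for 13 of the 18 probes.

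The 18 probes passed the scanner's signal flags throughout, though they differed in brightness. All were well above background in all 8 channels and 0 were saturated. Over the whole array 82.5% to 96.1% of probes were well above background, with the lowest shares in both channels of array 1. The mutated gene itself had 3 kept probes: Wrn A_51_P325247 was at 0.41 ± 0.10 (limma adjusted p = 0.0118), Wrn A_52_P383506 at 0.00 ± 0.02 (adjusted p = 0.987) and Wrn A_52_P498492 at -0.07 ± 0.06 (adjusted p = 0.340), all SD with n = 4. Where these probes lie relative to the mutated stretch is not known here, so they do not check the labels.

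Srebf1, the gene for the insulin-responsive lipogenic factor, had the lowest adjusted p of the 10 genes. Its log2 level, which is set per channel and compared only within a probe, was 16.9, 16.9, 16.3 and 16.7 in the mutants of arrays 1 to 4. In the wild types of the same arrays it was 16.3, 16.3, 15.9 and 16.0. Every mutant level was above every wild-type level, although mutant 3 was close to wild types 1 and 2. The ratios were 0.61, 0.60, 0.40 and 0.72, a mean of 0.58 ± 0.13 (SD, n = 4; limma adjusted p = 0.00877). Such a full separation upward was seen in 4 of the 18 probes and in 2.90% of all probes, and a full separation downward in 0 of the 18 and in 4.28% of all. Without array 2 the mean was still 0.58, and the adjusted p was 0.0531. With median centring in place of loess the mean was 1.07.

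Mlxipl, which encodes the sugar-responsive factor ChREBP, gave no common direction over its 2 probes. A_51_P456466 had ratios of -0.01, -0.19, 0.03 and -0.31, a mean of -0.12 ± 0.16 (SD, n = 4; limma adjusted p = 0.246). A_52_P423188 had 0.15, 0.27, 0.14 and 0.14, a mean of 0.18 ± 0.06 or 1.13-fold (adjusted p = 0.0499). The second probe was higher by the test, with small and even ratios on arrays 1, 3 and 4, but its mutant levels (12.1, 12.0, 11.6 and 11.7) overlapped the wild-type levels (12.0, 11.7, 11.5 and 11.5). It lost the call in 10 of 13 alternative settings, and the mean of both probes was 0.03 (adjusted p over genes 0.712). With median centring in place of loess the first probe turned to 0.18 with an adjusted p of 0.0497.

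Acly, which supplies cytosolic acetyl-CoA, was higher on the probe assigned to its mRNA. A_51_P261718 read 12.7, 13.3, 11.9 and 12.1 in mutants 1 to 4 and 12.4, 12.1, 11.3 and 11.8 in wild types 1 to 4. The groups overlapped, because wild types 1 and 2 were above mutants 3 and 4, but each mutant was above the wild type on its own array. The ratios were 0.30, 1.17, 0.62 and 0.33, a mean of 0.60 ± 0.41 (SD, n = 4) or 1.52-fold (limma adjusted p = 0.0377). The call was lost whichever single array was left out, with an adjusted p between 0.0597 and 0.0841. The probe on the cerebellum cDNA, A_52_P373556, ran the other way in value, at -0.04, -0.21, -0.14 and -0.14, with a mean of -0.13 ± 0.07 that did not pass (adjusted p = 0.103, limma unadjusted p = 0.0254). The mean of the 2 probes was 0.24 (adjusted p over genes 0.0748).

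Me1, the cytosolic malic enzyme that yields NADPH, gave nearly the same mean on its 2 probes. On A_51_P186601 the mutants read 14.2, 15.5, 14.3 and 14.4 and the wild types 14.0, 14.0, 13.8 and 13.6, without overlap. Mutant 2 stood more than a log2 unit above the other mutants, whereas the wild types spanned 0.40. The ratios of 0.20, 1.49, 0.51 and 0.79 had a mean of 0.75 ± 0.55 (SD, n = 4) or 1.68-fold (limma adjusted p = 0.0442). A_51_P266861 had ratios of 0.28, 1.56, 0.11 and 0.98, a mean of 0.73 ± 0.67, and did not pass (adjusted p = 0.0725). Without array 2 the first probe was at 0.50 (adjusted p = 0.0854), and it lost its call without each of the other arrays too, at an adjusted p of 0.0502 to 0.106.

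The acetyl-CoA carboxylases, which make the malonyl-CoA that commits carbon to fat, did not pass on any of their 6 probes. Acaca encodes the cytosolic form that feeds Fasn, and its 4 probes had means of 0.05 ± 0.17, 0.04 ± 0.03, 0.31 ± 0.31 and 0.00 ± 0.13 (SD, n = 4), with limma adjusted p from 0.104 to 0.970. The probe with the largest mean, A_52_P318040, read 0.25, 0.75, 0.06 and 0.16, above 0 on all 4 arrays and highest on array 2. Acacb encodes the form at the mitochondrial surface, where malonyl-CoA restrains fatty acid entry. Its probe A_51_P239236 split the arrays: the ratios were -0.07, 1.09, 0.98 and -0.04, a mean of 0.49 ± 0.63 (adjusted p = 0.159). The mutants there read 13.8, 14.6, 13.4 and 13.2 and the wild types 13.8, 13.5, 12.4 and 13.3, so that the ratio on array 3 goes with the lowest wild-type level and that on array 2 with the highest mutant level. The other Acacb probe, A_52_P340167, was at 0.05 ± 0.10 (adjusted p = 0.514).

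Fasn, the multifunctional enzyme that assembles palmitate, was higher on both of its probes. On A_51_P321126 the mutants read 17.8, 18.2, 16.8 and 17.3 and the wild types 16.6, 15.9, 16.3 and 16.2. The groups did not overlap, and array 2 paired the highest mutant with the lowest wild type. The ratios were 1.20, 2.34, 0.45 and 1.05, a mean of 1.26 ± 0.79 (SD, n = 4) or 2.39-fold (limma adjusted p = 0.0302), with the largest SD of the 18 probes. On A_52_P100252 the mutants read 13.1, 13.8, 11.5 and 12.4 and the wild types 12.5, 11.9, 11.2 and 11.3, which overlap because mutant 3 was below wild types 1 and 2 and mutant 4 below wild type 1. The ratios there were 0.54, 1.91, 0.31 and 1.09, a mean of 0.96 ± 0.71 or 1.95-fold (adjusted p = 0.0438). Array 2 was highest and array 3 lowest on both probes. Without array 2 the means were 0.90 (adjusted p = 0.0615) and 0.65 (adjusted p = 0.0860), and without array 1 or 4 neither probe passed.

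Elovl6, which lengthens palmitate, did not pass on its single probe. The ratios were 0.19, 1.47, -0.14 and 0.64, a mean of 0.54 ± 0.70 (SD, n = 4; limma adjusted p = 0.159). Its mutants read 13.5, 14.5, 12.7 and 13.1 against 13.3, 13.0, 12.9 and 12.5 in the wild types, and array 3 ran opposite in sign to the other arrays. Without array 2 the mean was 0.23 (adjusted p = 0.364).

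Scd1, the desaturase that makes oleate from stearate, had the largest mean ratio of the 10 genes. Its probe read 17.7, 18.0, 17.5 and 17.5 in mutants 1 to 4 and 17.0, 16.2, 15.7 and 16.6 in wild types 1 to 4. No mutant was as low as any wild type, the mutants spanned 0.51 and the wild types 1.33. The ratios of 0.72, 1.81, 1.83 and 0.86 had a mean of 1.30 ± 0.60 (SD, n = 4) or 2.47-fold (limma adjusted p = 0.0164). Here arrays 2 and 3 were both high, in contrast to Fasn, where array 3 was the lowest. Without array 2 the mean was 1.14 and the adjusted p 0.0703, whereas the call held without array 1, 3 or 4 (adjusted p of 0.0301 to 0.0373).

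Thrsp encodes Spot 14, a small protein that interacts with the lipogenic machinery and responds to thyroid hormone and carbohydrate. The mutants read 16.9, 17.3, 15.9 and 16.4 and the wild types 16.5, 15.6, 15.3 and 15.0. The groups overlapped because wild type 1 was above mutants 3 and 4, and each mutant was above its own partner. The ratios of 0.41, 1.67, 0.60 and 1.31 had a mean of 1.00 ± 0.59 (SD, n = 4) or 2.00-fold (limma adjusted p = 0.0277). Without array 2 the mean was 0.77 (adjusted p = 0.0829), and without array 4 it was 0.89 (adjusted p = 0.0758).

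**Figure D2:**
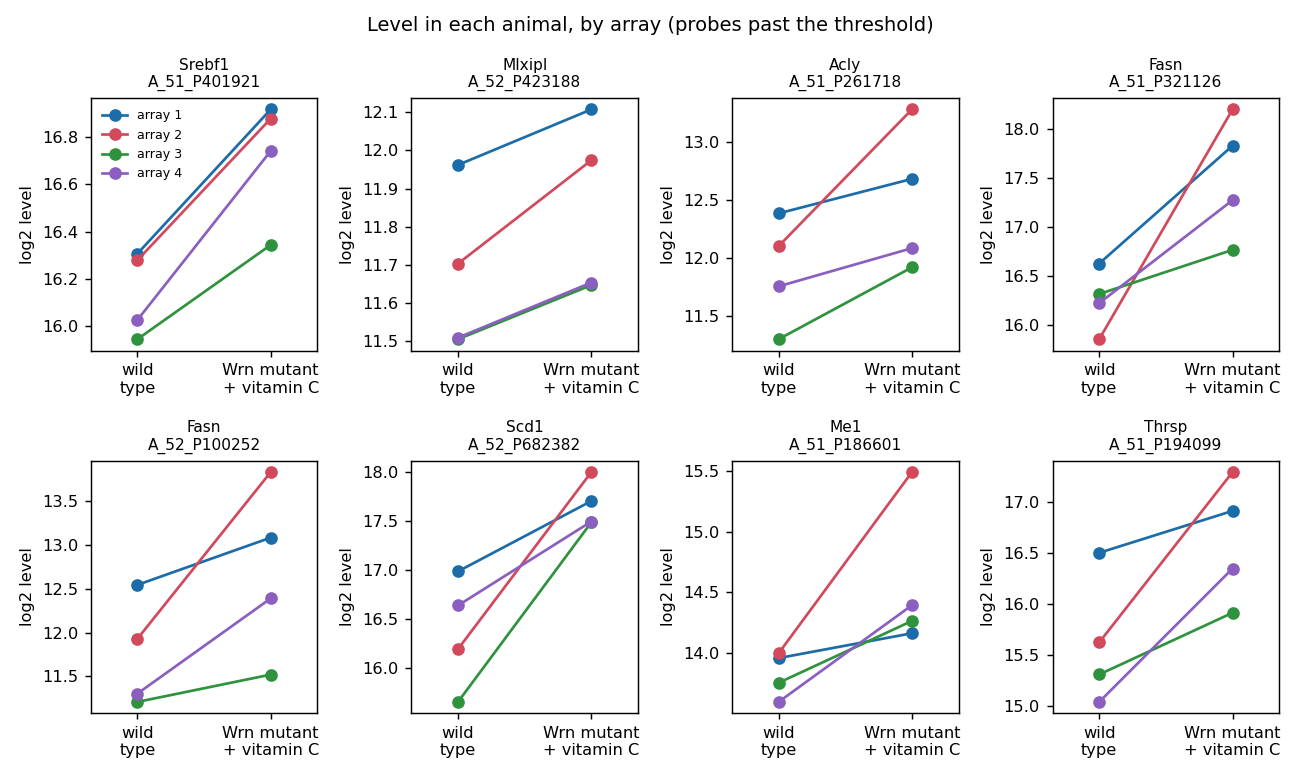
Log2 level in the wild-type and the mutant animal of each array, joined by a line, for the 8 probes that passed, each panel on its own axis that does not start at 0. Every line climbs from wild type to mutant, animal 1 is the highest wild type in 7 of the 8 panels, and mutant 3 is the lowest mutant in 7. Shares over all probes were not computed for the counts of animals, and animal and array cannot be told apart.

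The called probes are described here by animal, which is also by array. Over all probes the 2 channels of an array deviated together (r of 0.672 to 0.942), so animal and array cannot be told apart in the levels. Shares over all probes were not computed for the counts of highest and lowest animals or of wider ranges. These counts therefore do not set the members apart from other probes. Mutant 2 was the highest mutant on 6 of the 8 called probes and mutant 3 the lowest on 7, while wild type 1 was the highest wild type on 7 and wild type 3 the lowest on 5. The median member ratio was 0.20 on array 1, 0.92 on array 2, 0.18 on array 3 and 0.26 on array 4. Over all kept probes the medians of the 4 arrays lay between 0.00 and 0.01. The array with the highest ratio was array 2 for 13 of the 18 probes, compared with 28.8% of all probes. It was array 1 for 1 probe, array 3 for 3 and array 4 for 1, against 24.1%, 26.1% and 21.0% of all probes. The levels ranged more widely among mutants than among wild types on 6 of the 8 called probes, with Scd1 and Thrsp the exceptions. The median SD of the ratio was 0.36 over the 18 probes and 0.10 over all kept probes.

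With median centring 10 of the 18 probes passed, all higher. Over all 39080 probes 4292 were then higher and 3011 lower, against 2421 and 2655 with loess. The ratios were larger for Fasn A_51_P321126 (1.80), Scd1 (1.87) and Thrsp (1.45) than with loess, as they were for Srebf1. The hepatocyte gene Alb likewise went from 0.85 to 1.53. The count of called members depended on the processing and on single arrays. It was 3, 0, 5 and 2 of 18 without array 1, 2, 3 and 4, against 1494, 160, 2270 and 1086 of all 39080 probes. With the 2 channels of an array treated as unpaired it was 0, against 26 of all probes. In the unpaired fit 5 member probes had an unadjusted limma p under 0.05. The share of all probes under it was not computed, so this count has no background to be read against. Agilent's processed signals left Srebf1 and Scd1, with an adjusted p of 0.0240 and 0.0335. Srebf1 and Scd1 kept their calls in 11 of 13 alternative settings, being lost only without array 2 and in the unpaired fit, where their adjusted p values were 0.250 and 0.182. Thrsp kept its call in 9, the Fasn probes in 8 and 6, Acly in 7, Me1 in 5 and Mlxipl in 3 of the 13. In the table the authors deposited, 4 of the 18 probes had an adjusted p under 0.05, against 4283 of its 43379 spots. They were Srebf1 at 0.0179, Scd1 at 0.0261, Thrsp at 0.0398 and Fasn A_51_P321126 at 0.0429. The authors' deposited table places Acly at 0.0501, the second Fasn probe at 0.0561 and the first Me1 probe at 0.0574.

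**Figure D3:**
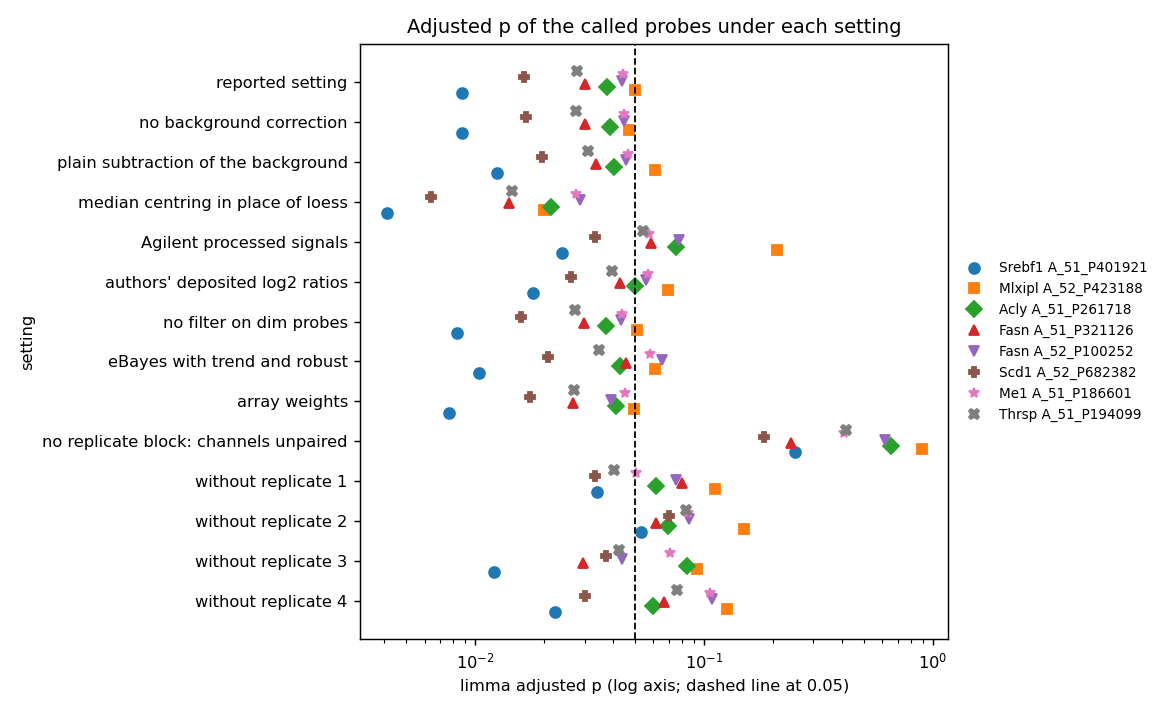
Limma adjusted p (log axis) of the 8 called probes under the reported setting and 13 alternatives, with a dashed line at 0.05. Srebf1 and Scd1 stay left of the line except without replicate 2 and with unpaired channels, where all 8 probes lie to its right.

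Genes around these enzymes were described by lists, with the brightest probe for each gene. By this rule 6 of the 10 fatty acid synthesis genes were higher and 0 lower, with a median ratio of 0.59. Over all 20666 named genes the median was 0.01, with 7.01% higher and 6.63% lower. These shares are with loess and were not computed with median centring, where 4292 of all 39080 probes were higher and 3011 lower. Counts with median centring, for these lists and the marker lists below, have only that background. The lists overlap in genes such as Pnpla3, and without array 2 only Elovl5 passed among the genes of the 7 lists (1, against 0 in the other 6 lists).

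Of 18 genes for the processing of SREBP and for its partner factors, 1 was higher and 1 lower, shares near those over all named genes, with a median of 0.00. With median centring 3 were higher and 0 lower. Insig2, which holds SREBP in the endoplasmic reticulum, was at 0.53 ± 0.21 (SD, n = 4; limma adjusted p = 0.0158) and passed on both of its probes. Mbtps1, the protease that makes the first cut of SREBP, was at -0.31 ± 0.16 (adjusted p = 0.0331), but its other 2 probes were at -0.02 and 0.00. Srebf2, the gene for the cholesterol-regulating relative, was at -0.41 ± 0.31 and did not pass (adjusted p = 0.0536). Its other probes, at -0.26, -0.14 and 0.14, did not pass either.

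Of 13 genes of the ChREBP list, 3 were higher and 2 lower, with a median of 0.09, and with median centring 6 were higher and 2 lower. Among those higher were Khk, which phosphorylates fructose, at 0.78 ± 0.28 (SD, n = 4; limma adjusted p = 0.0127) and the liver pyruvate kinase gene Pklr at 0.59 ± 0.33 (adjusted p = 0.0268). Lower were Txnip, a glucose-induced inhibitor of thioredoxin, at -0.92 ± 0.41 (adjusted p = 0.0159) and Mlxip, the gene for a ChREBP paralog, at -0.25 ± 0.08 (adjusted p = 0.0266). Khk and Txnip passed on both of their probes.

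Of 18 genes that supply citrate, acetyl-CoA and NADPH, 1 was higher and 1 lower, again near the shares over all named genes, with a median of 0.06. Citrate synthase, Cs, was at 0.32 ± 0.21 (SD, n = 4; limma adjusted p = 0.0460), although its other probe was at -0.18 and did not pass. On other probes than the brightest, Pgd had 1 of 2 higher, at 0.29 ± 0.18 (adjusted p = 0.0441), and Tkt 1 of 3, at 0.25 ± 0.09 (adjusted p = 0.0287). With median centring 7 of the 18 genes were higher and 0 lower, and higher calls over all probes also rose, to 4292 of 39080.

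Among 20 further elongases, desaturases and acyl-CoA synthetases, 4 were higher and 0 lower, with a median of 0.08. Elovl5, which lengthens polyunsaturated fatty acids, had ratios of 0.94, 1.54, 0.63 and 1.03 on arrays 1 to 4. These are of 1 sign and highest on array 2, and their mean was 1.03 ± 0.38 (SD, n = 4; limma adjusted p = 0.0118). Its second probe passed as well, at 0.87 ± 0.34, and without array 2 the first kept its call (adjusted p = 0.0486). Elovl3, which makes very long saturated chains, was at 0.55 ± 0.41 (adjusted p = 0.0487), and Hacd3, a dehydratase of the elongation cycle, at 0.26 ± 0.10 (adjusted p = 0.0274). The other gene past the threshold was Fads6 at 0.17 ± 0.06 (adjusted p = 0.0499). Acsl4 did not pass on its brightest probe but was lower on 1 of 2, at -0.26 ± 0.11 (adjusted p = 0.0317). The relatives of Scd1 did not pass, with Scd2 at 0.09, Scd3 at -0.07 and Scd4 at 0.08.

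Of 20 regulators of acetyl-CoA carboxylase and other lipogenic genes, 1 was higher and 4 lower, with a median of 0.04. The balance turned with median centring, to 5 higher and 3 lower and a median of 0.19. AMP-activated protein kinase switches the carboxylases off by phosphorylation. Of its subunits, the catalytic Prkaa2 was at -0.50 ± 0.21 (SD, n = 4; limma adjusted p = 0.0169) and Prkaa1 at -0.22 ± 0.10 (adjusted p = 0.0386), whereas the regulatory Prkag1 was at 0.17 ± 0.05 (adjusted p = 0.0481). Trib3, a pseudokinase that restrains AKT, was at -0.52 ± 0.25 (adjusted p = 0.0212), with a second probe at 0.03, and Mecr, of mitochondrial fatty acid synthesis, at -0.35 ± 0.12 (adjusted p = 0.0186). Prkaa1 and Prkag1 each passed on 1 of 2 probes.

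Of 10 measured genes that mark the fed and fasted liver (Pck1 and Irs2 were not analysed here), 0 were higher and 3 lower, with a median of -0.10. With median centring 2 were higher and 1 lower. Lpin1, a phosphatidate phosphatase gene, did not pass on its brightest probe but was higher on 1 of its other 3, at 0.32 ± 0.15 (adjusted p = 0.0287). Angptl8, which insulin induces, was at -1.21 ± 0.56 (SD, n = 4; limma adjusted p = 0.0166) and passed on both probes. Angptl4, which fasting induces, was at -0.45 ± 0.18 (adjusted p = 0.0167), and Cpt1a, which carries fatty acids into mitochondria for oxidation, at -0.38 ± 0.07 (adjusted p = 0.0115). With median centring Angptl4 was at -0.05 and Cpt1a at -0.04. Pnpla3, a SREBP-1c target, had ratios of 0.95, 2.31, 0.25 and 0.16, a mean of 0.92 ± 0.99 (adjusted p = 0.107). Its mean level was low, at 8.0 in mutants and 7.1 in wild types, and whether dim signal limits its ratios was not tested. The ratio was highest on array 2, as it was for Fasn, Me1, Acly and Thrsp. Whether feeding state had a part in these differences was not tested.

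**Figure D4:**
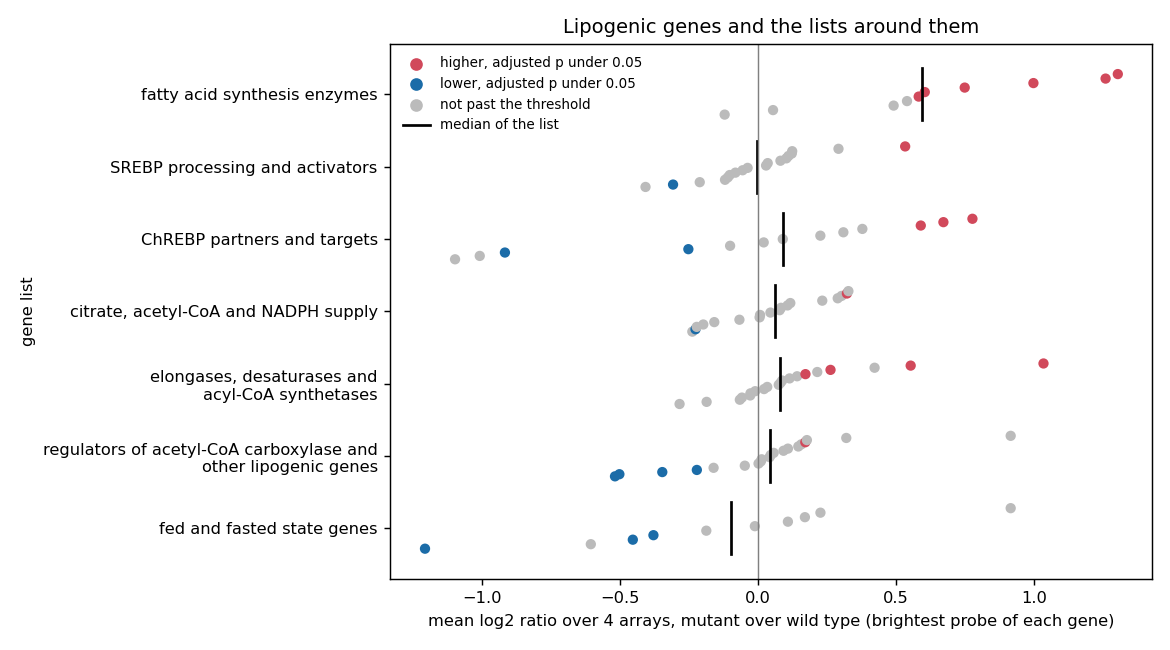
Mean log2 ratio of each gene (1 point per gene, brightest probe, 4 arrays) in the 7 lists, coloured by the limma test, with the median of each list as a black bar. The fatty acid synthesis genes have a median of 0.59, and the medians of the other 6 lists lie between -0.10 and 0.09.

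Markers of other cells were measured beside these values. Adipocytes also make fat, and of 10 adipocyte markers only Cfd passed, at 1.40 ± 0.52 (SD, n = 4; limma adjusted p = 0.0118), with ratios of 1.36, 2.06, 0.79 and 1.41 that were again highest on array 2. Adipoq was at -0.04 ± 0.23 (adjusted p = 0.787), Plin1 at 0.05 and Lep at 0.01, and none of them passed. Their mean levels in mutants were low, at 7.9, 8.8 and 8.8, so ratios near 0 do not show that adipocyte content was even. The mean level of the 10 markers was between 10.7 and 11.0 in mutants and between 10.4 and 10.8 in wild types. It includes Car3, whose brightest probe read 17.7 in mutants and 17.1 in wild types. On other probes of the same list, Fabp4 had 1 of 3 higher, at 0.21 ± 0.07, and Car3 1 of 2 lower, at -1.16 ± 0.71.

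Hepatocyte markers, which check the labelled tissue, were bright, with a mean level of 16.4 to 16.6 in mutants and 16.2 to 16.5 in wild types. Of 8 measured, Alb at 0.85 ± 0.21, Ttr at 0.46 ± 0.22 and Tat at 0.54 ± 0.26 were higher and Hnf4a, at -0.25 ± 0.10, was lower (limma adjusted p of 0.00732, 0.0224, 0.0219 and 0.0288). With median centring 5 were higher and 0 lower, and the median of the list moved from 0.03 to 0.56. Hnf4a passed on 1 of 3 probes, and Serpina1a and Tf were not analysed here. Apob did not pass on its brightest probe, at -0.03, but 1 of its 5 probes was lower, at -0.62 ± 0.21 (limma adjusted p = 0.0127). Apoa1 at -0.11, Cyp2e1 at -0.27 and Cps1 at 0.10 did not pass. Of 5 cholangiocyte markers Sox9 at -0.58 ± 0.37 and Spp1 at -0.63 ± 0.32 were lower, and of 5 sinusoidal endothelial markers Clec4g at -0.35 ± 0.20 and Kdr at -0.24 ± 0.09 were (limma adjusted p of 0.0301 to 0.0339 for all but Spp1, at 0.0223). Sox9 passed on 1 of 3 probes, with the others at -0.23 and 0.01, and Clec4g on 1 of 3, with the others at 0.04 and 0.11. With median centring 0 of the sinusoidal markers passed. The 6 Kupffer cell markers, at -0.20 to 0.19, and the 5 stellate cell markers, at -0.06 to 0.17, did not pass. The part of cell composition in the lipogenic ratios was not tested.

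Because several members were higher together, the bases before their transcription starts were searched for the letters that known lipogenic regulators recognise. The RefSeq promoter table of build GRCm38.p6 held 13 starts of 9 of the 10 genes, with Scd1 unmatched, and the 250 bases upstream of each start were read on both strands. CCAAT, the box of NF-Y, which acts with SREBP, was found before 6 genes (Acacb, Fasn, Me1, Mlxipl, Srebf1 and Thrsp; 7 of 13 starts) and in 33.8% of all 32851 promoters. GGGCGG, the box of Sp1, was found before 4 genes (5 of 13 starts) and in 32.7% of all promoters. CACGTG, the E-box, was found before Mlxipl alone and in 6.02% of all, and TCACNCCAC, a sterol response element, likewise before Mlxipl alone and in 1.05%. The carbohydrate response element, which holds a pair of E-boxes 5 bases apart, had no match in any promoter when both boxes were required to be exact. CCAAT occurred both before genes that passed and before Acacb, which did not. A match is only a run of letters.
The stretches before Fasn (chr11:120824548-120824797, minus strand) and Thrsp (chr7:97417551-97417800, minus strand) are shown because each held CCAAT more than once before a gene that passed. Capitals mark CCAAT or, on the opposite strand, ATTGG.
Fasn: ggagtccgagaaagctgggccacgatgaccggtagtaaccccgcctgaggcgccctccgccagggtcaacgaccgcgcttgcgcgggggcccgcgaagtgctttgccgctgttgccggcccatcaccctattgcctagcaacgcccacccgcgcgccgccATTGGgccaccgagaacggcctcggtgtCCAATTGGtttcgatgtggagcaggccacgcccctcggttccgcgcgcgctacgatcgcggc
Thrsp: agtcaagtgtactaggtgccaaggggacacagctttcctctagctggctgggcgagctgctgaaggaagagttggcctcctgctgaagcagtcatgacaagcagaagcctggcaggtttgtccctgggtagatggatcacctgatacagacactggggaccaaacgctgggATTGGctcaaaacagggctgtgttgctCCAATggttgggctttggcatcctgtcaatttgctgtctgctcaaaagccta
The Thrsp window has 2 matches, 1 on each strand. The Fasn window has 3, because CCAATTGG reads as CCAAT on both strands and its matches overlap.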

How the data were processed

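Scanner files hold, for each spot, the foreground and local background intensity of both channels, extracted with Agilent Feature Extraction 10.5.1.1 and annotated against mm9, per the file headers. They also hold Agilent's log10 ratio of its processed signals, per the file headers. The authors' deposited series table gives log2 ratios, p-values and adjusted p-values, and scores (log odds, a moderated statistic, a signed fold change), and it supplied the gene symbols. limma is named without a version in the submitters' processing notes. Subtraction of the background and loess, applied to the scanner intensities, gave the log2 ratios of the authors' deposited table with a slope of 1 on each array.

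Median intensities were corrected by normexp (offset 50) and loess with control spots at weight 0 (R 4.3.3, limma 3.58.1). Control and outlier spots were removed and spots averaged per probe. Probes were kept if well above background on at least 3 arrays in either channel. limma's lmFit and eBayes tested each probe's mean ratio against 0, with p-values adjusted over 39080 probes. Levels were taken per channel after loess and Aquantile and are open to dye bias. A replicate number marks the 2 animals that shared an array: over all probes, deviations of the 2 channels from their group means correlated with r of 0.672 to 0.942 on the 4 arrays, so the pairing was kept. All arrays lay on 1 slide with 1 scan. The labels call the replicates biological.

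Members, lists and alternatives were chosen with earlier results of these data known. All member probes are named. From each list the text names up to 3 genes past the threshold in each direction, and other genes were chosen after their values were seen. Some genes that this rule selects are left out and not reported here. Related genes can cross-hybridise. Precision is limited by there being 4 arrays.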

Additional observations from a re-analysis of the deposited data

Results flagged for a closer look

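With 4 arrays or animals in a group, a value was singled out where its gap to the nearest other value exceeded Dixon's critical share of the whole range, which chance gives in about 1 in 20 groups. Of 54 groups over the 18 probes, 2 were singled out. The ratio of Mlxipl A_52_P423188 on array 2 was 0.27, while the other 3 arrays gave 0.14 to 0.15. The level of Acacb A_52_P340167 in wild-type animal 1 was 8.55, while the other 3 wild types read 8.15 to 8.19. The mutant on the same array read 8.58, so the ratio there was 0.03.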

How the results depend on the processing

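The 8 member calls became 2 with Agilent's processed signals (1196 over all probes, against 5076) and 5 with the authors' ratios (4005 of 41174 probes). With trend and robust moderation they became 5, while calls over all probes were 5277 of 39080. When probes were averaged per gene, 4 of 10 genes passed (2720 calls in all). The brightest-probe rule gave 3189 calls in all. With no replicate block, 0 member probes and 26 of all probes passed. Leaving out each array in turn gave 0 to 5 member calls and 160 to 2270 calls in all, with the lowest counts without array 2. With median centring Mlxipl A_51_P456466 turned to 0.18 and Me1 A_51_P266861 passed at 0.91, and calls over all probes split 4292 higher to 3011 lower, against 2421 to 2655. The causes were not tested, and leaving out an array changes both the number of arrays and the values that are fitted. Over the member probes and their alternatives, with the 2 gene-level settings included, 196 values kept direction and side of the threshold. A further 46 lost the call, 1 gained it and 1 that then passed reversed. The other 10 changed sign and still did not pass. They concern 2 probes of Acaca and 1 of Mlxipl. For Mlxipl the value was the mean of its 2 probes, at 0.03, against -0.12 for A_51_P456466. No setting moved the median of all probes by over 0.1, but normalization sets that median near 0, so this does not check the calls. All member probes were well above background, a flag that 82.5% to 96.1% of all probes also passed. The dimmest in mutants were Acaca A_51_P439426 at 7.3, Acacb A_52_P340167 at 8.3 and Acly A_52_P373556 at 9.6. Whether dim signal limits their ratios was not tested. The limma adjusted p values of 0.0377 to 0.0499 for Acly, Fasn A_52_P100252, Me1 and Mlxipl lie near the threshold.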
